A study of Mus musculus with 16 samples.

Results

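The livers of male mice that lack matrin-3 in hepatocytes were compared with the livers of male control mice. The comparison takes in 8 of the 16 livers of the study, 4 knockout and 4 control, chosen because they share 1 deposited count table; all genes of that table were used and no liver of the other table. The control mice carried floxed Matr3 alleles, with no Cre named in their labels. The knockout mice (LKO, liver-specific knockout) carried the same floxed alleles together with Cre recombinase under the albumin promoter, and are described as littermates of the floxed mice. All 8 males were put on a high-fat diet (60% of energy as fat) at 7 weeks of age, ate it for 16 weeks and were fasted for 12 hours before the liver was taken. Each library came from 1 mouse, and floxed males are numbered 1 to 4 and LKO males 5 to 8 below. The albumin promoter drives Cre in hepatocytes, so other cells of the liver keep the floxed gene, and a whole-liver library mixes both. Poly(A) RNA was read by strand-marking sequencing, and values are given as CPM, the counts of a gene scaled to the size of its library.

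Matrin-3 is a protein of the inner nuclear matrix that binds RNA through a pair of recognition motifs and DNA through zinc fingers, and takes part in splicing, RNA retention and RNA stability. It works beside other nuclear RNA-binding proteins, among them the paraspeckle protein SFPQ and the splicing repressor PTB. The hepatocyte makes most of the proteins of blood plasma, turns surplus sugar into fatty acids and detoxifies foreign compounds. A diet rich in fat makes it store lipid in droplets.

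The 8 libraries held between 32680843 and 36496193 counts. Hepatocyte genes were present in all of them: albumin mRNA took 4.58% to 5.80% of the counts, and the summed level of 14 hepatocyte defining markers lay between 84137 and 104960 CPM in floxed and between 89065 and 100550 CPM in LKO livers. The Y-linked Ddx3y lay between 58.8 and 73.7 CPM and Xist between 0 and 0.188 CPM, so each library matched its male label. The first principal component held 22.2% of the variance and set the 4 floxed livers (-19.6 to -13.1) apart from the 4 LKO livers (11.97 to 22.01). Across genes, rank correlations between livers of the same group (0.988 to 0.994) overlapped with those between groups (0.988 to 0.992). Cyp1a1, a monooxygenase induced through the aryl hydrocarbon receptor, set 1 liver of each group apart: it reached 73.6 CPM in floxed 3 and 218 CPM in LKO 8 and stayed at or below 2.26 CPM in the other 6. In the labels the mouse numbers of floxed 1 and 2 are far from the numbers of the other 6 males. Without these 2 livers 229 genes were called, of which 102 are among the 160 described below.

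Matr3, the gene targeted by Cre, fell. Matr3 (chromosome 18, 35562138 to 35593835, plus strand) measured 55.3, 52.9, 60.9 and 59.4 CPM in the 4 floxed and 33.6, 36.5, 36.2 and 33.9 CPM in the 4 LKO livers. The groups did not overlap, and the LKO mean was 61.3% of the floxed mean (log2 fold change -0.71, SE 0.06, edgeR adjusted p = 0.000807; exact permutation p = 0.0286, two-sided, the smallest that the 70 regroupings of 4 and 4 livers allow). Counts are per gene, so reads of deleted and retained exons cannot be told apart, nor can RNA left in hepatocytes from RNA of cells in which Cre is not active.

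Of 15355 genes with enough counts to be tested, 160 (1.04%) were called at an edgeR adjusted p under 0.05, 81 higher (0.528%) and 79 lower (0.514%) in LKO livers. In 159 of the 160 the 4 LKO values lay all above or all below the 4 floxed values, which was also so for 1250 (8.14%) of all genes tested. The exception was H19, an imprinted noncoding RNA of fetal liver, with 0.453, 0.639, 0.644 and 0.563 CPM in floxed livers and 0.632, 5.91, 4.61 and 6.45 CPM in LKO livers; it was high in 3 LKO livers and near the floxed level in LKO 5 (log2 fold change 2.93, SE 0.58, edgeR adjusted p = 0.0441). Its call was lost when any 1 liver other than LKO 5 was left out (largest edgeR adjusted p 0.12), with floxed 1 and 2 both omitted (0.142), by limma-voom (0.293) and under robust dispersion (0.107). Most changes were of moderate size: the median of the absolute log2 fold change among called genes was 0.80, and it was beyond 1 in 31 higher and 25 lower genes. The count moved with single livers. Omitting floxed 3 left 95 calls, and omitting LKO 5, 6, 7 or 8 left 71, 77, 86 or 69. With floxed 3 and LKO 8 both omitted it was 27. The called genes included 57, 23 higher and 34 lower, that kept their call without any 1 of the 8 livers. The 30 genes named next, the 15 of smallest p in each direction, were all among these 57. When floxed 3 and LKO 8 were both left out, 19 of the 30 kept their call.

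**Figure D1:**
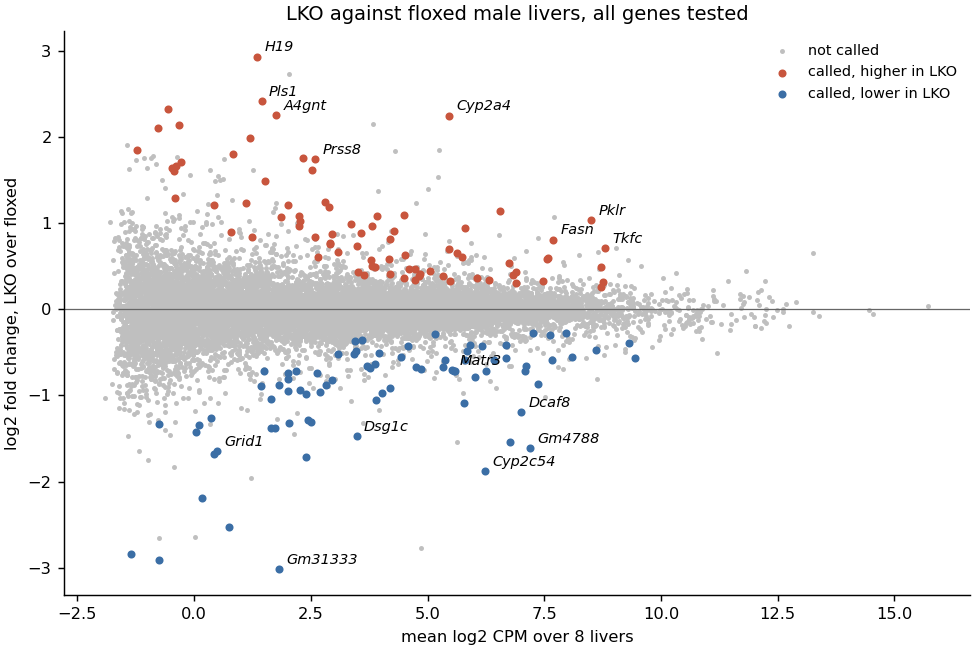
Each point is 1 of 15355 genes, with its mean log2 CPM over the 8 livers on the horizontal axis and its log2 fold change, LKO over floxed, on the vertical axis. Called genes (edgeR adjusted p under 0.05) are coloured, 81 above 0 and 79 below 0, and they occur at low and at high levels alike.

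The gene with the smallest p of all was Dcaf8, which encodes a substrate receptor of the CUL4-DDB1 ubiquitin ligase and lies on chromosome 1, 172148084 to 172197005, plus strand. It measured 167, 185, 184 and 176 CPM in floxed 1 to 4 and 81.2, 74.8, 78.3 and 76.8 CPM in LKO 5 to 8. Every LKO liver had less than the lowest floxed liver by a wide margin, and the spread within each group was small (log2 fold change -1.20, SE 0.06, edgeR adjusted p = 1.08e-05). The Dcaf8 exons share bases with Pea15a on the opposite strand. Of the 26 tested genes for the CUL4-DDB1 ligase and its receptors, Dcaf8 alone fell and Det1 alone rose. Over all genes 0.514% fell and 0.528% rose. The list was drawn up with earlier results of these livers known, and its median log2 fold change was -0.012. Det1, a substrate adaptor of the same ligase, went from 9.68 ± 0.922 to 13.1 ± 0.422 CPM (log2 fold change 0.44, SE 0.08, edgeR adjusted p = 0.0406). The call of Det1 was lost without floxed 2, floxed 3, any 1 of the LKO livers, or floxed 1 and 2 together (largest edgeR adjusted p 0.119). The scaffold Cul4b (log2 fold change -0.33, SE 0.09, edgeR adjusted p = 0.129) and the adaptor Ddb1 (log2 fold change 0.19, SE 0.07, edgeR adjusted p = 0.267) were not called. Cop1, another ligase receptor, had 49.97, 50.9, 52.1 and 51.6 CPM in the 4 floxed and 41.5, 45.7, 43.2 and 44.3 CPM in the 4 LKO livers and did not pass the test (log2 fold change -0.23, SE 0.05, edgeR adjusted p = 0.0888).

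Gm4788, a predicted gene in a complement gene cluster, had the second smallest p (chromosome 1, 139697623 to 139781243, minus strand). It measured 198, 248, 234 and 199 CPM in floxed livers and 67.01, 77.7, 73.3 and 69.99 CPM in LKO livers, and the lowest floxed liver stood far above the highest LKO liver (log2 fold change -1.61, SE 0.09, edgeR adjusted p = 2.28e-05). Next to Gm4788, with a gap of 22.9 kb, Cfhr2, which encodes a complement regulator of plasma, also fell. It measured 409, 477, 484 and 435 CPM in floxed 1 to 4 and 327, 328, 331 and 314 CPM in LKO 5 to 8, again without overlap (log2 fold change -0.47, SE 0.07, edgeR adjusted p = 0.0078). Of the same stretch, Cfhr3 (log2 fold change -0.20, edgeR adjusted p = 0.446) and F13b, which encodes a coagulation factor subunit (0.06 and 0.811), were not called. The genes of this cluster are close in sequence, and reads may be shared between them.

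Several further genes of protein handling and defence fell with small error. Naa25, the auxiliary subunit of an enzyme that acetylates protein N termini, had 24.2, 25.5, 24.3 and 22.1 CPM in the 4 floxed and 12.8, 13.4, 13.2 and 11.6 CPM in the 4 LKO livers. For Naa25 the edgeR log2 fold change was -0.92 (SE 0.07, adjusted p = 0.000408). Nlrp6, a sensor protein of the NOD-like receptor family, had 206, 192, 220.3 and 238 CPM in floxed livers and 123, 108, 114 and 125 CPM in LKO livers. Nlrp6 gave an edgeR log2 fold change of -0.87 (SE 0.08, adjusted p = 0.000752). Srpr, the receptor at the endoplasmic reticulum for the signal recognition particle, had 156, 183, 178 and 163 CPM in floxed 1 to 4 and 95.9, 109, 101 and 107 CPM in LKO 5 to 8. For Srpr the edgeR log2 fold change was -0.72 (SE 0.07, adjusted p = 0.00112). In each of these 3 genes the highest LKO liver lay below the lowest floxed liver.

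Among enzymes, the fall of Cyp2j9, a cytochrome P450 that oxidises fatty acids, went from 8.52 ± 0.471 to 4.37 ± 0.412 CPM (log2 fold change -0.96, SE 0.10, edgeR adjusted p = 0.00178). Arsk, a lysosomal sulfatase, fell from 9.10 ± 0.506 to 4.96 ± 0.374 CPM (log2 fold change -0.88, SE 0.09, edgeR adjusted p = 0.0019), and Car1, a carbonic anhydrase, from 6.24 ± 0.212 to 3.27 ± 0.316 CPM (log2 fold change -0.93, SE 0.11, edgeR adjusted p = 0.0037). These 3 enzymes fell by similar amounts on the log2 scale. A pair of repair proteins was also lower. Mgmt, which removes methyl groups from guanine in DNA, had 31.8, 30.96, 30.7 and 38.6 CPM in the 4 floxed and 20.1, 20.8, 20.5 and 21.5 CPM in the 4 LKO livers. Mgmt gave an edgeR log2 fold change of -0.67 (SE 0.08, adjusted p = 0.0042); floxed 4 was higher than the other floxed livers. Ascc3, a helicase of alkylation repair and ribosome rescue, had 19.7, 20.7, 20.7 and 18.7 CPM in floxed livers and 7.78, 11.05, 11.5 and 8.24 CPM in LKO livers. For Ascc3 the edgeR log2 fold change was -1.05 (SE 0.12, adjusted p = 0.00419). Asb3, a receptor subunit of a cullin ubiquitin ligase, went from 5.25 ± 0.216 to 2.71 ± 0.301 CPM (log2 fold change -0.95, SE 0.12, edgeR adjusted p = 0.00488); its exons share bases with Gpr75 on the same strand.

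**Figure D2:**
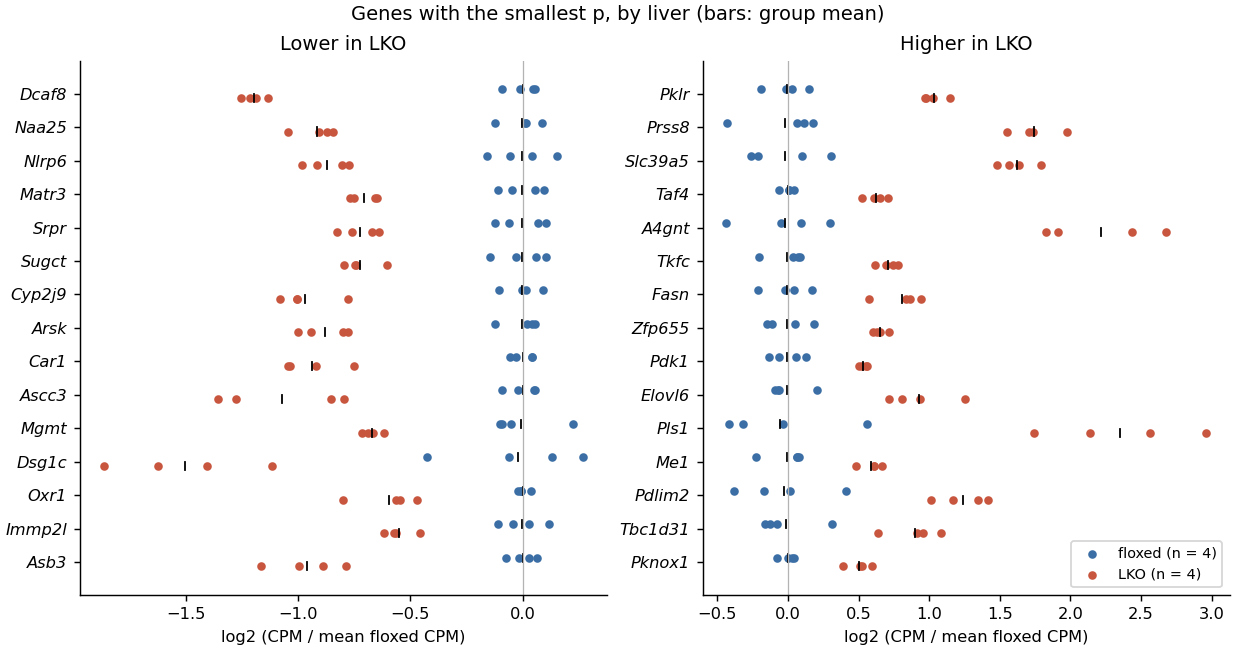
Each point is 1 liver, placed by its log2 ratio of CPM to the mean of the 4 floxed livers, for the 15 genes of smallest p in each direction; black bars are group means (n = 4 each). The 2 groups stay apart in each of the 30 genes, and the largest gap among those lower is that of Dcaf8.

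A noncoding transcript showed the largest fall among the named genes. Gm31333, a long intergenic RNA on chromosome 12, 29139167 to 29199768, plus strand, had 6.94, 7.51, 5.85 and 4.44 CPM in floxed 1 to 4 and 0.977, 0.418, 0.916 and 0.734 CPM in LKO 5 to 8 (log2 fold change -3.02, SE 0.25, edgeR adjusted p = 0.000614), and no LKO liver reached 1 CPM. The predicted models Gm36264, with 1.78, 1.76, 1.96 and 1.53 CPM in the 4 floxed and 0.46, 0.269, 0.305 and 0.49 CPM in the 4 LKO livers (log2 fold change -2.19, SE 0.23, edgeR adjusted p = 0.00193), and Gm12718, with 3.06, 3.19, 3.01 and 1.81 CPM in floxed livers and 0.632, 0.299, 0.305 and 0.653 CPM in LKO livers (log2 fold change -2.53, SE 0.30, edgeR adjusted p = 0.00419), followed the same pattern. Of the 160 calls, 19 were predicted or clone-named models, 8 higher and 11 lower. The share of such models among all genes tested was not counted. By gene type, long noncoding RNAs had 6 higher (0.35%) and 11 lower calls (0.643%) among 1712 tested, and pseudogenes 2 higher (0.528%) and 0 lower among 379. These shares lie near the 0.528% and 0.514% of all genes, apart from the 0 lower calls of the pseudogenes. Other called genes beyond a log2 fold change of -1 that kept their call without any 1 liver were Lrit2 (log2 fold change -1.31, SE 0.17, edgeR adjusted p = 0.00562), Ripor2 (log2 fold change -1.38, SE 0.18, edgeR adjusted p = 0.00519), Tmem8b (log2 fold change -1.04, SE 0.14, edgeR adjusted p = 0.00716) and the low transcript 9430083B18Rik (log2 fold change -2.84, SE 0.37, edgeR adjusted p = 0.00567).

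Among the genes that rose, Pklr had the smallest p. It encodes the pyruvate kinase of liver and red cells, which makes the last step of glycolysis, and lies on chromosome 3, 89136142 to 89146784, plus strand. It measured 209.7, 244, 265 and 237 CPM in floxed 1 to 4 and 469.8, 530.1, 488 and 468 CPM in LKO 5 to 8. The lowest LKO liver was far above the highest floxed liver (log2 fold change 1.03, SE 0.08, edgeR adjusted p = 0.000408). Tkfc, which phosphorylates glyceraldehyde from fructose, had 294, 357, 348 and 359 CPM in the 4 floxed and 581, 549.9, 521 and 568 CPM in the 4 LKO livers. Tkfc gave an edgeR log2 fold change of 0.71 (SE 0.08, adjusted p = 0.0019). Pdk1, a kinase that holds back pyruvate dehydrogenase, had 83.6, 79.5, 95.4 and 91.03 CPM in floxed livers and 124, 129, 128 and 126 CPM in LKO livers. For Pdk1 the edgeR log2 fold change was 0.53 (SE 0.07, adjusted p = 0.00435). The other kinases of that enzyme did not pass the test: the log2 fold change was 0.03 for Pdk2 and -0.31 for Pdk4 (edgeR adjusted p = 0.929 and 0.682).

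Lipogenesis is the making of fatty acids from citrate, and 4 of its 24 tested genes rose and 0 fell, against 0.528% and 0.514% of all genes. Acly, which splits citrate into acetyl-CoA, had 94.7, 108, 90.9 and 96.6 CPM in floxed 1 to 4 and 132, 144, 120.2 and 118 CPM in LKO 5 to 8. Acly gave an edgeR log2 fold change of 0.40 (SE 0.08, adjusted p = 0.046). Fasn, fatty acid synthase, had 155, 169, 129.8 and 148 CPM in the 4 floxed and 269, 289, 224 and 274 CPM in the 4 LKO livers. For Fasn the edgeR log2 fold change was 0.81 (SE 0.10, adjusted p = 0.0042). Elovl6, which lengthens its product, had 43.7, 36.1, 36.3 and 35.6 CPM in floxed livers and 62.2, 72.5, 66.4 and 90.5 CPM in LKO livers. Elovl6 gave an edgeR log2 fold change of 0.94 (SE 0.12, adjusted p = 0.00479). Me1, malic enzyme, which supplies NADPH, had 159, 130.1, 160.4 and 159 CPM in floxed 1 to 4 and 232, 212, 232 and 242 CPM in LKO 5 to 8. For Me1 the edgeR log2 fold change was 0.59 (SE 0.08, adjusted p = 0.00567). In all 4 genes the groups were apart; LKO 8 stood highest for Elovl6, LKO 6 for Fasn. Fasn, Elovl6 and Me1 kept their call without any 1 liver. Acly lost it without floxed 1, floxed 3, floxed 4 or any 1 of the LKO livers (largest edgeR adjusted p 0.139), and without floxed 3 and LKO 8 together only Elovl6 of the list was called.

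The rest of the lipogenesis list leaned the same way without passing the test. The log2 fold change was above 0 in 22 of 24 genes, with a median of 0.40 against -0.0058 over all genes. Acaca, the carboxylase that starts the pathway, had 52.5, 58.2, 39.6 and 44.6 CPM in the 4 floxed and 66.7, 87.02, 61.2 and 75.6 CPM in the 4 LKO livers. Acaca gave an edgeR log2 fold change of 0.58 (SE 0.13, adjusted p = 0.0835). Scd1, which desaturates stearate, had 8991, 6178, 8213 and 7164 CPM in floxed livers and 10487, 10141, 10185 and 17144 CPM in LKO livers. For Scd1 the edgeR log2 fold change was 0.65 (SE 0.19, adjusted p = 0.16); LKO 8 stood apart from the other 3. Thrsp, a lipogenic protein induced by thyroid hormone, had 134, 417, 319 and 719.6 CPM in floxed 1 to 4 and 654, 816, 568 and 571 CPM in LKO 5 to 8, with a wide spread among floxed livers (log2 fold change 0.71, SE 0.38, edgeR adjusted p = 0.495). Summed over the list, a sum that is mostly Scd1, the level was 12949, 10385, 12506 and 11883 CPM in floxed 1 to 4 and 15936, 16100, 15540 and 22479 CPM in LKO 5 to 8. The transcription factors Srebf1 and Mlxipl of the pathway were not called by edgeR. Srebf1 had 164, 250.5, 188 and 187 CPM in the 4 floxed and 266, 241, 216 and 263 CPM in the 4 LKO livers and its groups overlapped (log2 fold change 0.32, SE 0.12, edgeR adjusted p = 0.3). Mlxipl, which encodes the glucose-sensing factor ChREBP, had 379, 374, 345 and 333 CPM in floxed livers and 309, 249, 318 and 289 CPM in LKO livers, lower in each LKO liver but not called by edgeR (log2 fold change -0.30, SE 0.08, edgeR adjusted p = 0.153). DESeq2 called Mlxipl lower (adjusted p = 0.0410).

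Of 25 genes for ChREBP targets and glycolysis, 2 rose (Pklr and Tkfc) and 1 fell, against 0.528% and 0.514% of all genes. The median log2 fold change of the list was 0.18. The one that fell was Gckr, a regulatory protein of sugar phosphorylation in the hepatocyte nucleus. It had 353, 322, 345 and 288 CPM in floxed 1 to 4 and 226, 199.7, 235 and 227 CPM in LKO 5 to 8. Gckr gave an edgeR log2 fold change of -0.56 (SE 0.08, adjusted p = 0.00809). Summed over the list, floxed livers held 10533 to 11641 CPM and LKO livers 13058 to 13533 CPM. Outside the list, Aldoc, an aldolase of glycolysis picked after its value was seen, rose from 4.26 ± 0.641 to 7.60 ± 0.967 CPM (log2 fold change 0.84, SE 0.14, edgeR adjusted p = 0.0187); it was lost without floxed 3, LKO 6 or LKO 8 (largest adjusted p 0.074).

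The start regions of Pklr and Fasn are shown because both genes are textbook targets of ChREBP and both rose. The 250 bases before the start site are from RefSeq on GRCm38.p6, 5′ to 3′ on the coding strand: for Pklr, plus strand, chr3:89136373-89136622, at the second of the 2 start sites in the table; for Fasn, minus strand, chr11:120824548-120824797. Capitals mark matches on either strand to the carbohydrate response element, searched as CACGNG and CNCGTG with 5 bases between them, and to the CCAAT box.
Pklr: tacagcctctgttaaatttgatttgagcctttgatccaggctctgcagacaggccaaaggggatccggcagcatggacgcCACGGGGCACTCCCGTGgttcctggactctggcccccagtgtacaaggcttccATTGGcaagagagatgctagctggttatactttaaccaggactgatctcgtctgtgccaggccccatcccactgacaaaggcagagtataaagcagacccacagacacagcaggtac
Fasn: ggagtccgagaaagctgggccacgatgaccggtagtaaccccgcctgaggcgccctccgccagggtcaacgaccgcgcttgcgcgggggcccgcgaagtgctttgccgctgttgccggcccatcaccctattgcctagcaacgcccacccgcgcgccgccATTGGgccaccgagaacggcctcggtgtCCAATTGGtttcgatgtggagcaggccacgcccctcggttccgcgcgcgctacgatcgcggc
In Pklr the carbohydrate response element lies from position -170 to -154, with position 0 the start site, and a CCAAT box on the opposite strand from -117 to -113. The element in the spelling searched is rare, present in 15 of 32851 mouse start windows of 300 bases (0.0457%), whereas CCAAT is present in 12289 (37.4%). Of the 160 called genes 113 had a window, and Pklr, picked as a textbook target, alone held that spelling. Elements spelled otherwise or outside the window were not searched, so the other called genes may hold some. The Fasn window has 3 CCAAT matches, 2 of which overlap each other, from -62 to -55. A match of letters is a description and does not show binding.

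**Figure D3:**
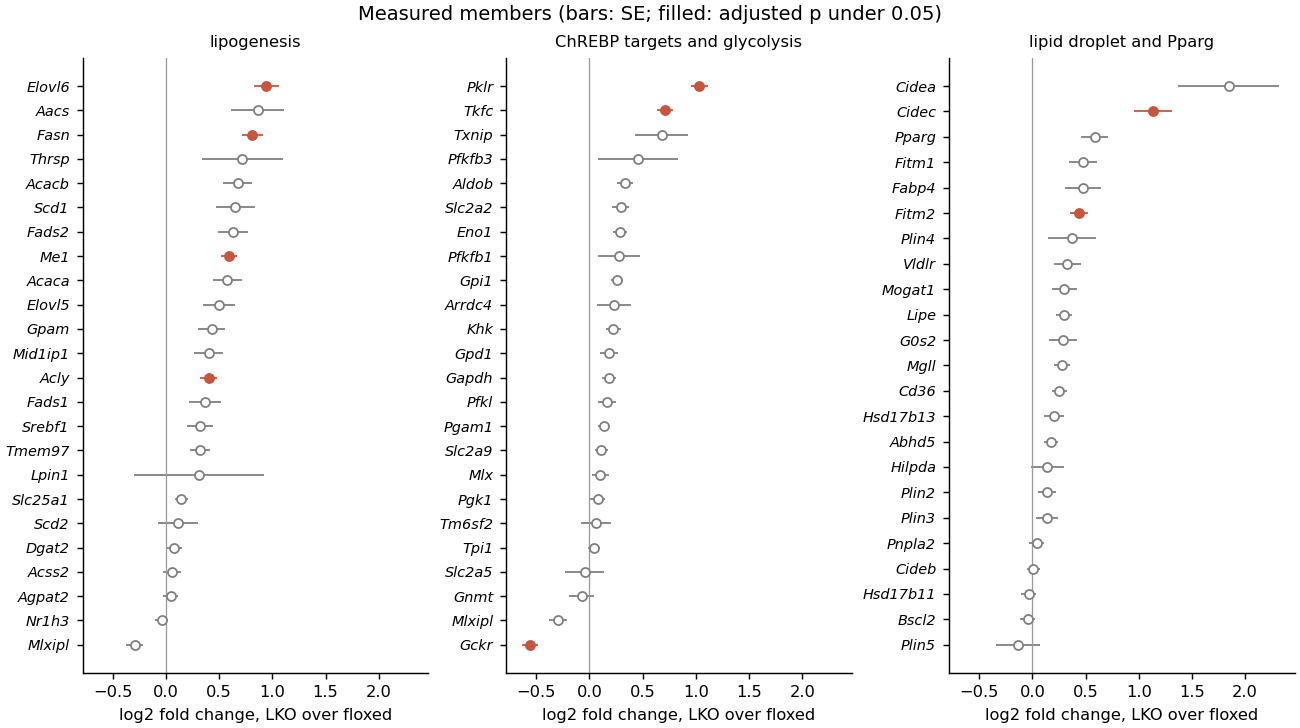
Each row is 1 tested gene of the lipogenesis, ChREBP and glycolysis (1 gene not shown), or lipid droplet list; points give the log2 fold change, LKO over floxed, and bars its SE from edgeR (4 livers a group). Filled points passed an adjusted p of 0.05, and 22 of 24 lipogenesis genes and 20 of 23 lipid droplet genes lie above 0.

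In the pentose phosphate pathway and NADPH supply, 2 of 15 genes rose, Me1 as above and Tkt, the transketolase. Tkt had 157, 156, 156 and 159 CPM in the 4 floxed and 198, 184, 186 and 218 CPM in the 4 LKO livers (log2 fold change 0.32, SE 0.06, edgeR adjusted p = 0.042), and the call of Tkt was lost when any 1 liver was left out (largest edgeR adjusted p 0.123), with upper quartile scaling (0.0516) and without floxed 1 and 2 (0.106). Among 23 genes for lipid droplets and Pparg, 2 rose and 0 fell, and the median log2 fold change was 0.28. Over all genes 0.528% rose and 0.514% fell. Cidec, a protein that fuses droplets, had 61.5, 80.6, 38.9 and 54.2 CPM in floxed livers and 129, 140.1, 116 and 133 CPM in LKO livers. For Cidec the edgeR log2 fold change was 1.14 (SE 0.18, adjusted p = 0.0147). Fitm2, needed for droplets to bud from the endoplasmic reticulum, had 88.1, 99.99, 103 and 110.05 CPM in floxed 1 to 4 and 125, 151, 133 and 134 CPM in LKO 5 to 8. Fitm2 gave an edgeR log2 fold change of 0.44 (SE 0.08, adjusted p = 0.0365). Both were higher in each LKO liver. Cidec lost its call without LKO 5, LKO 6 or LKO 8 (largest edgeR adjusted p 0.0552), and Fitm2 without floxed 1, 2 or 3, any 1 of the LKO livers or floxed 1 and 2 together (up to 0.103).

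Cidea, a relative of Cidec, had 11.8, 38.3, 10.2 and 5.54 CPM in the 4 floxed and 45.6, 62.1, 59.8 and 69.04 CPM in the 4 LKO livers and was not called (log2 fold change 1.85, SE 0.47, edgeR adjusted p = 0.116); every LKO liver was above every floxed liver, with floxed 2 closest. Cidea was called by limma-voom (adjusted p = 0.0347), and by edgeR without floxed 2 (log2 fold change 2.68, adjusted p = 0.0013) and without floxed 1 and 2 together (2.90, adjusted p = 0.0030). Pparg, the nuclear receptor for droplet genes, had 18.7, 14.1, 17.03 and 18.5 CPM in floxed livers and 21.1, 23.2, 29.8 and 28.5 CPM in LKO livers. For Pparg the edgeR log2 fold change was 0.58 (SE 0.13, adjusted p = 0.0662). Markers of fat cells are given beside these genes, though 3 of the 6 tested (Cidea, Fabp4 and Lipe) are also in the lipid droplet list: 6 of 11 adipocyte markers were tested, 0 were called by edgeR (5 at an unadjusted p under 0.05, DESeq2 3, limma-voom 1), all 6 had a log2 fold change above 0 (median 0.94) and 4 kept the groups apart, against 8.14% of all genes tested. Their summed level, which is mostly Car3, was 3044 to 3647 CPM in floxed and 3225 to 4296 CPM in LKO livers. The defining markers Adipoq and Plin1 had 0 to 3 counts in every library. The part of fat cells in the lipid droplet result was not tested, and in whole tissue fewer cells of a type and less RNA per cell cannot be told apart. Cholesterol synthesis, a pathway next to lipogenesis, had 0 of 25 genes called by edgeR, 23 of them with a log2 fold change above 0 (median 0.25); 9 had an unadjusted p under 0.05, and DESeq2 called 5 and limma-voom 0. In fatty acid oxidation and ketogenesis 1 of 31 rose, against 0.528% of all genes. It was Bdh1, the enzyme that makes beta-hydroxybutyrate, from 384 ± 9.10 to 461 ± 11.3 CPM (log2 fold change 0.26, SE 0.05, edgeR adjusted p = 0.043). Its call was lost without floxed 1, 2 or 3, any 1 of the LKO livers or floxed 1 and 2 together (largest edgeR adjusted p 0.138). It was also lost with no filter on low counts (edgeR adjusted p = 0.0571).

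Genes of epithelial membranes changed in both directions, 3 higher and 2 lower of 32 tested for cell junctions and the epithelial cytoskeleton, against 0.528% and 0.514% of all genes; the list was drawn up with earlier results of these livers known. Prss8, the membrane protease prostasin, had 2.97, 3.10, 2.87 and 2.03 CPM in floxed 1 to 4 and 10.8, 8.96, 8.03 and 9.11 CPM in LKO 5 to 8. Prss8 gave an edgeR log2 fold change of 1.75 (SE 0.15, adjusted p = 0.000614). Pls1, which bundles actin in microvilli, had 0.623, 0.669, 1.23 and 0.814 CPM in the 4 floxed and 2.79, 4.93, 3.67 and 6.47 CPM in the 4 LKO livers. For Pls1 the edgeR log2 fold change was 2.42 (SE 0.30, adjusted p = 0.00488). Pdlim2, an adaptor of the actin cytoskeleton, had 5.46, 3.16, 3.66 and 4.16 CPM in floxed livers and 10.97, 9.26, 8.31 and 10.4 CPM in LKO livers. Pdlim2 gave an edgeR log2 fold change of 1.24 (SE 0.16, adjusted p = 0.00571). Each was low in floxed livers, Pls1 below 1 CPM in 3 of 4, and higher in every LKO liver. Against these, Dsg1c, a cadherin of desmosomes, had 15.7, 19.7, 17.9 and 12.2 CPM in floxed 1 to 4 and 6.17, 7.55, 4.49 and 5.30 CPM in LKO 5 to 8 (log2 fold change -1.47, SE 0.18, edgeR adjusted p = 0.00435), and Ripor2, an inhibitor of the small GTPase RhoA, had 4.84, 3.89, 4.21 and 4.82 CPM in the 4 floxed and 1.98, 1.97, 1.19 and 1.66 CPM in the 4 LKO livers. For Ripor2 the edgeR log2 fold change was -1.38 (SE 0.18, adjusted p = 0.00519). The 5 calls held without any 1 liver, and 2 of the 5 held without floxed 3 and LKO 8 together. Markers of bile duct cells, which have such membranes, were not called: 0 of 13 passed the edgeR test (1 at an unadjusted p under 0.05, DESeq2 and limma-voom 0), and their summed level was 168 to 193 CPM in floxed and 185 to 226 CPM in LKO livers, highest in LKO 8. The log2 fold change was above 0 in 7 of the 13 and below 0 in 6 (median 0.098). The duct keratin Krt19 had 25 to 48 counts in floxed and 18 to 33 in LKO libraries, and Krt7 15 to 38 and 25 to 40.

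The remaining genes of smallest p among those higher had mixed functions. Slc39a5, a zinc importer, had 3.43, 2.31, 2.40 and 2.97 CPM in floxed livers and 8.21, 7.76, 8.64 and 9.63 CPM in LKO livers. Slc39a5 gave an edgeR log2 fold change of 1.62 (SE 0.14, adjusted p = 0.000643). Of 27 tested genes for zinc and other metals it was the only one called, against 1.04% of all genes. A4gnt, which adds N-acetylglucosamine to mucin glycans, had 1.10, 1.22, 1.40 and 0.845 CPM in floxed 1 to 4 and 6.17, 4.06, 4.31 and 7.32 CPM in LKO 5 to 8. For A4gnt the edgeR log2 fold change was 2.25 (SE 0.23, adjusted p = 0.00178). Taf4, a subunit of the general transcription factor TFIID, had 17.2, 18.03, 18.5 and 18.1 CPM in the 4 floxed and 28.1, 27.4, 29.4 and 25.8 CPM in the 4 LKO livers. Taf4 gave an edgeR log2 fold change of 0.63 (SE 0.06, adjusted p = 0.00127). In these 3 genes each LKO liver held more than any floxed liver. Zfp655, a zinc finger protein, rose from 38.5 ± 4.16 to 60.5 ± 2.10 CPM (log2 fold change 0.65, SE 0.08, edgeR adjusted p = 0.00435). Tbc1d31, a protein of centriolar satellites, rose from 13.5 ± 2.21 to 25.4 ± 3.17 CPM (log2 fold change 0.91, SE 0.12, edgeR adjusted p = 0.00716), and Pknox1, a homeobox factor, from 11.5 ± 0.424 to 16.4 ± 0.939 CPM (log2 fold change 0.50, SE 0.07, edgeR adjusted p = 0.00743). Of the predicted models, Gm45716 rose from 9.63 ± 0.881 to 20.4 ± 2.13 CPM (log2 fold change 1.08, SE 0.10, edgeR adjusted p = 0.000643), Gm39929 from 0.767 ± 0.237 to 2.67 ± 0.603 CPM (log2 fold change 1.80, SE 0.25, edgeR adjusted p = 0.00809) and Gm42642 from 0.202 ± 0.065 to 1.03 ± 0.193 CPM (log2 fold change 2.33, SE 0.29, edgeR adjusted p = 0.00479).

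Calls among detoxifying enzymes went in both directions. Of 36 Cyp2 genes 1 rose and 3 fell, against 0.528% and 0.514% of all genes. The log2 fold change was below 0 in 25 of the 36 (median -0.12). Cyp2a4, a steroid hydroxylase, had 18.1, 6.42, 9.89 and 27.04 CPM in floxed livers and 88.4, 78.6, 67.4 and 57.7 CPM in LKO livers. For Cyp2a4 the edgeR log2 fold change was 2.25 (SE 0.36, adjusted p = 0.0176). Cyp2c54 had 58.8, 107, 215 and 92.1 CPM in floxed 1 to 4 and 25.6, 34.04, 36.7 and 32.4 CPM in LKO 5 to 8 (log2 fold change -1.88, SE 0.33, edgeR adjusted p = 0.0268), with floxed 3 far above the other floxed livers. Cyp2a12 had 645, 736, 792 and 710.4 CPM in the 4 floxed and 577, 549, 536 and 537 CPM in the 4 LKO livers. Cyp2a12 gave an edgeR log2 fold change of -0.39 (SE 0.07, adjusted p = 0.0332). Cyp2j9 kept its call without any 1 liver, and the others did not: Cyp2a4 was lost without floxed 3, LKO 5 or LKO 6 (largest edgeR adjusted p 0.0615), Cyp2c54 without any 1 of the LKO livers (0.0967), and Cyp2a12 without floxed 2, floxed 3 or any 1 of the LKO livers (0.114). With robust dispersion Cyp2a4 (0.104) and Cyp2c54 (0.122) missed the threshold. Cyp2a and Cyp2c genes have near copies with which reads can be shared.

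Of the 19 glucuronosyltransferases, which attach a sugar acid to bilirubin, steroids and drugs, Ugt1a5 rose from 14.3 ± 4.65 to 30.6 ± 2.43 CPM (log2 fold change 1.10, SE 0.21, edgeR adjusted p = 0.0368) and Ugt2a3 fell from 244 ± 35.98 to 163 ± 12.8 CPM (log2 fold change -0.58, SE 0.10, edgeR adjusted p = 0.0297). Over all genes 0.528% rose and 0.514% fell. The Ugt1a genes share their last exons, so their counts are uncertain. Neither call held without floxed 3 or without any 1 of the LKO livers (largest edgeR adjusted p 0.105 and 0.106); Ugt1a5 was also lost without floxed 1 and with robust dispersion (0.0899), and Ugt2a3 without floxed 2 or floxed 4. In other families Cyp3a59 fell (log2 fold change -0.72, SE 0.14, edgeR adjusted p = 0.0417), 1 of 21 tested in the Cyp1, Cyp3 and Cyp4 families, and was lost without floxed 1, floxed 2 or any 1 of the LKO livers (up to 0.132) and with robust dispersion (0.0547). Of 16 carboxylesterases Ces1b fell (log2 fold change -0.59, SE 0.12, edgeR adjusted p = 0.0469) and was lost without floxed 2, floxed 4 or any 1 of the LKO livers (up to 0.156), with DESeq2 size factors (0.0512) and with limma-voom (0.0502). Of 29 genes for glutathione transferases and NRF2 targets edgeR called 0 (2 at an unadjusted p under 0.05, DESeq2 1, limma-voom 0), and of 12 sulfotransferases 0 (4, 2 and 0). The log2 fold change was below 0 in 8 of 19 glucuronosyltransferases, 12 of 21 Cyp1, Cyp3 and Cyp4 genes and 8 of 16 carboxylesterases. It was below 0 in 16 of the 29 glutathione transferase and NRF2 genes and 9 of the 12 sulfotransferases.

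Of the genes for bile acids, the mRNAs of Abcc2 and Cyp8b1 were called. Abcc2, the pump that exports conjugates into bile, had 918, 868, 819.6 and 706 CPM in floxed livers and 556, 634, 533 and 518 CPM in LKO livers. For Abcc2 the edgeR log2 fold change was -0.56 (SE 0.09, adjusted p = 0.0199). Cyp8b1, which sets the share of cholic acid, had 391, 306, 378 and 318 CPM in floxed 1 to 4 and 473, 495, 539 and 452 CPM in LKO 5 to 8. Cyp8b1 gave an edgeR log2 fold change of 0.49 (SE 0.09, adjusted p = 0.0368). Each group of values was apart, and Cyp7a1, the rate-limiting enzyme of bile acid synthesis, overlapped widely (log2 fold change 0.03, SE 0.29, edgeR adjusted p = 0.987). The 28 genes for bile acids thus had 1 higher and 1 lower call, against 0.528% and 0.514% of all genes. Abcc2 was lost without floxed 3, LKO 5, LKO 7 or LKO 8 (largest edgeR adjusted p 0.081) and without floxed 1 and 2 (0.0627), and Cyp8b1 without floxed 2, 3 or 4 or any 1 of the LKO livers (0.107). The export pump Abcb11 had 417, 494, 394 and 306 CPM in the 4 floxed and 287, 245, 265 and 287 CPM in the 4 LKO livers, all LKO values lower, and was not called (log2 fold change -0.57, SE 0.12, edgeR adjusted p = 0.0717). Abcb11 was called without floxed 4 (edgeR adjusted p = 0.00969). Among 31 organic ion transporters, Slc22a30 fell beside Abcc2. It had 111, 125, 129 and 122 CPM in floxed livers and 83.8, 82.5, 89.8 and 73.1 CPM in LKO livers (log2 fold change -0.57, SE 0.07, edgeR adjusted p = 0.00567) and kept its call without any 1 liver.

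Genes known for higher levels in male than in female mouse liver were described as a list. Of 24 tested male-biased genes 0 rose and 3 fell, and 23 of 24 had a log2 fold change below 0 (median -0.49, against -0.0058 over all genes). In 4 of the 24 the groups did not overlap, against 8.14% of all genes tested. Over all genes 0.528% rose and 0.514% fell. The summed level of the list overlapped between groups, at 8629, 13469, 10133 and 8557 CPM in floxed 1 to 4 and 8090 to 9408 CPM in LKO livers, with floxed 2 highest. C8b, a part of the complement pore, had 64.5, 94.9, 82.6 and 86.96 CPM in floxed 1 to 4 and 45.3, 57.3, 46.6 and 41.9 CPM in LKO 5 to 8. For C8b the edgeR log2 fold change was -0.78 (SE 0.13, adjusted p = 0.0173). Susd4, a complement inhibitor, had 14.6, 21.3, 17.7 and 17.5 CPM in the 4 floxed and 12.1, 12.5, 10.6 and 10.5 CPM in the 4 LKO livers. Susd4 gave an edgeR log2 fold change of -0.64 (SE 0.11, adjusted p = 0.0309). Serpina1e, a protease inhibitor of plasma, had 127, 185, 207 and 128 CPM in floxed livers and 52.8, 93.2, 44.3 and 32.6 CPM in LKO livers. For Serpina1e the edgeR log2 fold change was -1.54 (SE 0.29, adjusted p = 0.0398). Each LKO value was below each floxed value, but the 3 calls were all lost without floxed 3, LKO 5, LKO 7 or LKO 8 (largest edgeR adjusted p 0.121); Susd4 was also lost without LKO 6, and Serpina1e without floxed 2, with floxed 1 and 2 both omitted (0.0677), and under robust dispersion (0.145). The steroid dehydrogenase Hsd3b5 had 0.453, 2.89, 3.04 and 0.25 CPM in floxed 1 to 4 and 0.287, 0.358, 0.305 and 0.109 CPM in LKO 5 to 8, at low levels with overlap (log2 fold change -2.64, SE 0.77, edgeR adjusted p = 0.17). The major urinary proteins, which carry pheromones, had 0 of 17 called by edgeR (6 at an unadjusted p under 0.05, DESeq2 2, limma-voom 0) and 16 with a log2 fold change below 0; some of them are also in the male-biased list, and reads can be shared among these near copies.

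Female-biased genes had 2 higher and 0 lower calls of 21 tested (median 0.12), against 0.528% and 0.514% of all genes. They were Cyp2a4, given above, and Corin, a protease that activates natriuretic peptides, which rose from 0.896 ± 0.463 to 3.58 ± 0.927 CPM (log2 fold change 1.99, SE 0.35, edgeR adjusted p = 0.0283). Corin was lost without floxed 1, floxed 4 or any 1 of the LKO livers (largest edgeR adjusted p 0.0906). Other female-biased genes lay the other way: Cyp2b9 had 312, 225, 293 and 354 CPM in the 4 floxed and 213, 125, 204 and 193 CPM in the 4 LKO livers (log2 fold change -0.69, SE 0.17, edgeR adjusted p = 0.111), and Cyp2b13 had its highest value in floxed 2 (log2 fold change -0.97, SE 0.31, edgeR adjusted p = 0.212). Of 19 genes for growth hormone and STAT5, the axis that sets these patterns in rodent liver, 0 were called by edgeR, DESeq2 or limma-voom (3 had an unadjusted edgeR p under 0.05), and their median log2 fold change was 0.0059.

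Plasma proteins of the complement system fell in 3 of 33 cases, Cfhr2 and C8b as above and C1ra, a protease of the first complement complex, from 218 ± 7.02 to 177 ± 7.47 CPM (log2 fold change -0.30, SE 0.05, edgeR adjusted p = 0.0333; lost without floxed 2 or 3, any 1 of the LKO livers or floxed 1 and 2, largest adjusted p 0.119). Of all genes tested 0.514% fell. Summed over the complement list, floxed livers held 16637 to 18207 CPM and LKO livers 14839 to 16371 CPM. Cfd, an alternative pathway protease also made by fat cells, had 9.54, 10.4, 24.8 and 25.7 CPM in floxed livers and 65.9, 30.8, 42.4 and 47.03 CPM in LKO livers and was not called (log2 fold change 1.40, SE 0.34, edgeR adjusted p = 0.0985). In coagulation 1 of 29 was called, Kng2, which encodes a kininogen, from 272 ± 7.66 to 224 ± 7.32 CPM (log2 fold change -0.28, SE 0.05, edgeR adjusted p = 0.035; lost without floxed 1, 3 or 4, any 1 of the LKO livers or floxed 1 and 2, up to 0.12). Acute phase proteins had 0 of 27 called by edgeR (6 at an unadjusted p under 0.05, DESeq2 1, limma-voom 0), hepatokines 0 of 24 (1, 1 and 0) and the unfolded protein response 0 of 26 (2, 0 and 0).

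Zinc finger genes numbered Zfp900 to Zfp999, most of them of the KRAB family, had 0 higher and 2 lower calls of 45 tested, with 36 below 0. Of all genes tested 0.528% rose and 0.514% fell. The called genes are neighbours on chromosome 4, 98.5 kb apart. Zfp982 had 5.27, 6.57, 4.01 and 3.16 CPM in floxed 1 to 4 and 1.75, 1.79, 1.80 and 1.96 CPM in LKO 5 to 8 (log2 fold change -1.38, SE 0.22, edgeR adjusted p = 0.0153), and Zfp979 had 7.11, 12.96, 7.02 and 4.69 CPM in the 4 floxed and 2.44, 2.18, 2.44 and 2.64 CPM in the 4 LKO livers. Zfp979 gave an edgeR log2 fold change of -1.71 (SE 0.27, adjusted p = 0.0158). Floxed livers varied among themselves while LKO livers lay close together, and both calls were lost without any 1 of the LKO livers (largest edgeR adjusted p 0.0621 and 0.0623). The other 5 tested Zfp genes of the same stretch were not called. These genes have near-identical copies, so their counts are uncertain.

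Called genes that lie within 100 kb of each other formed 7 pairs, and 5 of the pairs moved in the same direction. Besides Gm4788 with Cfhr2 and Zfp982 with Zfp979, these were Lrit1 with Lrit2 on chromosome 14 (log2 fold changes -0.68 and -1.31), Pklr with Hcn3 on chromosome 3 (1.03 and 1.02) and Slc44a3 with A530020G20Rik on chromosome 3 (0.40 and 0.99). The last 2 pairs share exon bases on opposite strands, and reads of the partners cannot be told apart without the strand setting of the counting. Hcn3, which encodes a pacemaker channel, had 2.86, 3.41, 2.46 and 3.75 CPM in floxed livers and 5.77, 4.84, 7.82 and 6.91 CPM in LKO livers. Of these pairs Gm4788, Cfhr2, Lrit1, Lrit2 and Pklr kept their calls without any 1 liver; Hcn3 was lost without floxed 1, floxed 3, LKO 5, LKO 7, LKO 8 or floxed 1 and 2 together (largest edgeR adjusted p 0.0927), Slc44a3 without any 1 liver (up to 0.14) and A530020G20Rik without LKO 5 or LKO 6 (up to 0.0615). The pairs Pan2 with Slc39a5 (-0.29 and 1.62) and Fitm2 with Hnf4aos (0.44 and -1.29) moved in opposite directions. Pan2 kept its call only without floxed 4 among the 8 omissions of 1 liver (largest edgeR adjusted p 0.139), and lost it without floxed 1 and 2 together (0.102). In all, 43 of the 160 called genes share exon bases with a gene on the opposite strand, among the leaders Dcaf8 (with Pea15a), Naa25 (Erp29), Srpr (Fam118b and Tirap), Sugct (Mplkip), Pklr (Hcn3), Prss8 (Kat8) and Tkfc (Cyb561a3 and Ddb1). Neither this overlap nor pairs within 100 kb were counted over all genes tested. The counts therefore do not show whether called genes differ from other genes in these traits.

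Of the 68 protein-coding genes that fell, 17 (25%) span at least 200 kb from first to last base, against 4.66% of the 13174 protein-coding genes tested. Among protein-coding genes of at least 400 kb, 10 of 176 fell (5.68%) and 0 rose, and among those of 200 to 400 kb 7 of 438 fell (1.60%) and 4 rose. In the 4 shorter classes the share that fell was 0.222% under 10 kb, 0.452% from 10 to 30 kb, 0.516% from 30 to 100 kb and 0.363% from 100 to 200 kb, against 0.516% of all protein-coding genes. The median span of those that fell was 37.96 kb, of the 73 that rose 27.1 kb and of all tested 24.1 kb. Long genes were less abundant, with a median of the mean log2 CPM of 2.31 in the longest class against 3.98 over all protein-coding genes. At a mean log2 CPM of 5 or more, where counts are high, 4 of 115 genes of at least 200 kb fell (3.48%) and 27 of 4104 shorter genes (0.658%). The shift was small for the class as a whole: the median log2 fold change of genes of at least 400 kb was -0.10, with 61.9% below 0.

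**Figure D4:**
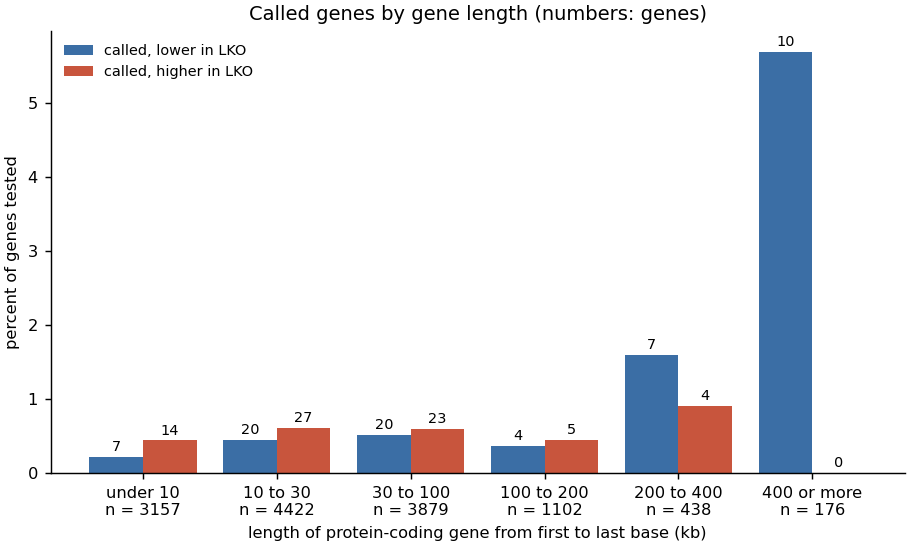
Bars give the percent of tested protein-coding genes called lower (blue) or higher (red) in LKO livers in 6 classes of gene length, with the number of genes above each bar. The share called lower is 5.68% at 400 kb or more and at most 1.60% in each shorter class.

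The number of long genes that fell depended on single livers. Of at least 400 kb it was 6 when floxed 3 was omitted, 5, 6, 5 or 5 when LKO 5, 6, 7 or 8 was omitted, and 1 with floxed 3 and LKO 8 both omitted. Of at least 200 kb 17 fell, and this became 10, 9, 9 and 8 without LKO 5, 6, 7 and 8, and 2 without floxed 3 and LKO 8 together. The 4 long genes that rose (Arhgap10, Corin, Raet1e and Ttc7b) became 2 without floxed 3 or floxed 4, 1 without LKO 7 and 0 without LKO 5, LKO 6 or LKO 8. For each liver, the median log2 deviation of the genes of at least 400 kb from their own mean was 0.089, 0.090, 0.047 and -0.035 in floxed 1 to 4 and -0.098, -0.0064, -0.027 and -0.0022 in LKO 5 to 8, so that floxed 4 lay among the LKO livers.

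Among the 17, 8 kept their call without any 1 liver, as listed here by process. Sugct, a mitochondrial transferase of lysine breakdown, spans 838 kb on chromosome 13, 16857472 to 17695553, minus strand; it had 52.9, 57.4, 62.95 and 61.05 CPM in floxed 1 to 4 and 33.8, 34.998, 38.5 and 34.9 CPM in LKO 5 to 8. For Sugct the edgeR log2 fold change was -0.72 (SE 0.07, adjusted p = 0.00129). Immp2l, a peptidase of the inner mitochondrial membrane, spans 932 kb and had 26.2, 23.8, 24.9 and 27.8 CPM in the 4 floxed and 18.7, 17.3, 16.7 and 17.4 CPM in the 4 LKO livers. Immp2l gave an edgeR log2 fold change of -0.55 (SE 0.07, adjusted p = 0.00479). Oxr1, which protects cells from oxidative damage, spans 414 kb and had 66.2, 68.4, 66.3 and 65.7 CPM in floxed livers and 38.3, 48.2, 45.1 and 45.6 CPM in LKO livers. For Oxr1 the edgeR log2 fold change was -0.59 (SE 0.07, adjusted p = 0.00464). The groups were apart in each, and LKO 5 was the lowest liver for Oxr1. Cpq, a secreted carboxypeptidase, spans 511 kb and had 66.2, 69.03, 62.9 and 68.5 CPM in floxed 1 to 4 and 45.6, 51.004, 45.5 and 48.99 CPM in LKO 5 to 8. Cpq gave an edgeR log2 fold change of -0.48 (SE 0.06, adjusted p = 0.00524). Grid1, a receptor subunit known from neurons, spans 763 kb and had 1.81, 2.34, 2.60 and 1.47 CPM in the 4 floxed and 0.632, 0.508, 0.825 and 0.653 CPM in the 4 LKO livers, a fall at a low level (log2 fold change -1.65, SE 0.24, edgeR adjusted p = 0.0106). Ascc3, Mgmt and Asb3, described above, span 259, 236 and 217 kb.

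**Figure D5:**
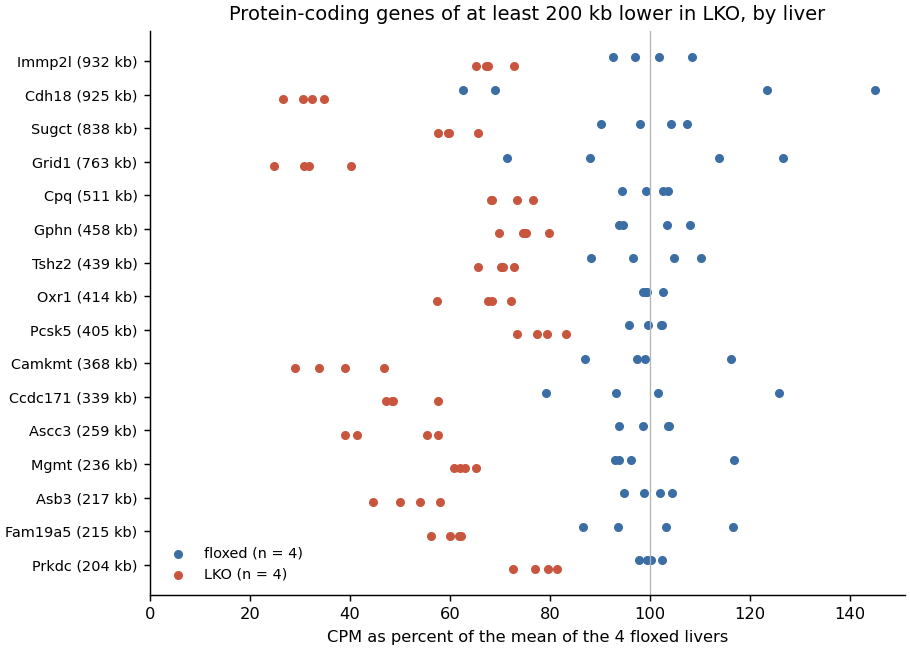
Each row is 1 of 16 of the 17 protein-coding genes of at least 200 kb that fell (1 is not shown), ordered by length, and each point is 1 liver at its CPM in percent of the mean of the 4 floxed livers. The 4 LKO points lie below the 4 floxed points in each row.

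Of 26 tested genes for matrin-3 and other nuclear RNA-binding proteins, edgeR and limma-voom each called 1 and DESeq2 3, and by edgeR it was Matr3. In this list 10 had an unadjusted edgeR p under 0.05, and 21 of 26 had a log2 fold change below 0 (median -0.14). The groups did not overlap in 5 of the 26, Matr3 among them, against 8.14% of all genes tested. Sfpq had 53.4, 64.5, 65.6 and 67.4 CPM in floxed livers and 42.7, 57.2, 52.5 and 52.1 CPM in LKO livers (log2 fold change -0.29, SE 0.10, edgeR adjusted p = 0.241), with overlap between the groups. Nono (log2 fold change 0.06, SE 0.06, edgeR adjusted p = 0.725), Ptbp1 (log2 fold change -0.11, SE 0.07, edgeR adjusted p = 0.565) and Ptbp2 (log2 fold change -0.18, SE 0.10, edgeR adjusted p = 0.486) also overlapped.

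Most other functions of the liver had 0 members called by edgeR or limma-voom. Over all genes 160 of 15355 were called (1.04%), and 1886 had an unadjusted edgeR p under 0.05. These lists are given with their number at an unadjusted p under 0.05. For gluconeogenesis and insulin signalling it was 3 of 25 genes, for glycogen 2 of 17, for apolipoproteins and VLDL assembly 8 of 28, for the clock 7 of 22, for pericentral genes 2 of 21 and for the urea cycle and periportal genes 5 of 26. For iron it was 3 of 22, for the mitochondrial genome 4 of 13, for nuclear genes of oxidative phosphorylation 3 of 34, for lysosomes and autophagy 6 of 30, for the interferon response 5 of 34, for p53 targets 3 of 20, for immediate early genes 2 of 22 and for proliferation 4 of 20. DESeq2 called between 0 and 4 genes in each of these 14 lists. Among 30 hepatocyte transcription factor genes 1 was called, Hnf4aos, the antisense transcript of Hnf4a, with 4.95, 6.02, 11.5 and 7.92 CPM in floxed 1 to 4 and 2.99, 3.08, 3.48 and 2.91 CPM in LKO 5 to 8 (log2 fold change -1.29, SE 0.24, edgeR adjusted p = 0.0332); its call did not hold without floxed 4 or any 1 of the LKO livers (largest edgeR adjusted p 0.108) or with limma-voom (0.0700). Among markers of cells other than hepatocytes 1 was called, the pancreatic protease gene Cela1 (log2 fold change -0.48, SE 0.10, edgeR adjusted p = 0.0475). It was lost without floxed 1, 2 or 3 or any 1 of the LKO livers (largest edgeR adjusted p 0.164). Cela1 had 290 to 512 counts in each library, against 0 to 7 for the acinar genes Cela2a, Cela3b and Pnliprp1. Amy2a5, Clps, Cpa1, Cpb1, Ctrb1, Pnlip and Prss2 had none. Cela1 therefore cannot be read as a marker of acinar cells here. Sinusoidal endothelial markers had 0 of 20 called by edgeR, DESeq2 or limma-voom (3 at an unadjusted p under 0.05). All 20 had a log2 fold change above 0 (median 0.16), the groups overlapped in each, and their summed level was 362 to 489.5 CPM in floxed and 465 to 535 CPM in LKO livers. Kupffer cell markers (371 to 588 against 441 to 756 CPM) and stellate cell markers (552 to 939 against 698 to 871 CPM) overlapped, with 0 of 21 and 0 of 24 called by these 3 tools and 0 at an unadjusted p under 0.05. Lymphocyte markers summed to 218 CPM in LKO 5 and to at most 47.1 CPM in the other 7 livers. Most of the LKO 5 sum came from the immunoglobulin genes Ighm and Igkc (3351 and 2575 counts) and from Jchain (808). The T cell gene Cd3e had 30 counts in LKO 5 and 12 to 44 in the other 7.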

How the data were processed

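For these 8 livers the authors deposited 1 table of whole-number counts per gene, with Ensembl identifiers, which was used as given. TRIzol RNA went into directional libraries after poly(A) enrichment, per the labels' protocols. The submitters' processing notes name mm10 as build; aligner, counter and strand setting are not given in the sources used here. Names, positions and spans came from a GENCODE annotation of that build, in which 11 of 24623 identifiers had no symbol. Library totals were 32680843 to 36496193, and no 2 libraries of a group agreed within counting error (chi-square per degree of freedom at least 13.7).

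The filter was filterByExpr with a minimum count of 10 and a minimum total of 15, which kept 15355 genes. After TMM scaling, 4 LKO were compared with 4 floxed livers by a two-sided quasi-likelihood F-test (edgeR 4.0.16, R 4.3.3) without covariates. P-values were adjusted by Benjamini-Hochberg over all genes tested and called under 0.05. Members and the 54 gene lists were chosen with earlier results of these data known, and no set test was run. Genes were named if among the 15 smallest p in a direction (mean log2 CPM at least 0, predicted models left out) or among up to 4 members of smallest p in a list with at least 2 calls. Matr3, called genes beyond a log2 fold change of 1 that held without any 1 liver, and predicted models among the 5 smallest p of a direction were added. Further list members, neighbours and long genes were added after their values were seen. Alternatives were DESeq2 1.42.0, limma-voom (limma 3.58.1), other scalings and filters, robust dispersion and omission of livers. On simulated counts for 15405 genes, 200 of them changed, the test recovered 52% of 1.5-fold and 100% of 2-fold changes, and 4.86% of its calls were false. The simulation gave every gene the same dispersion and changed only genes with at least 200 counts summed over the livers. These shares therefore do not carry over to genes that vary more between livers or have fewer counts. Some single genes are not reported here.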

Additional observations from a re-analysis of the deposited data

Results flagged for a closer look

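Among 302 groups of 4 values, single livers lay far from the other 3 in 22, by Dixon's test at the 95% level; chance flags about 1 in 20 groups, so a number of this order can arise by chance. Cyp1a1 and Cyp1a2, the pair of monooxygenases induced through the aryl hydrocarbon receptor, were high in 1 liver of each group: Cyp1a1 was at 73.6 CPM in floxed 3 and 218 CPM in LKO 8, and Cyp1a2 at 4140.4 CPM and 5380.3 CPM in the same livers, where the other livers had at most 642 CPM. Mup19, a major urinary protein, was at 185 CPM in floxed 2 and at most 9.04 CPM in the other floxed livers, and Cyp2b13 was at 36.3 CPM there against 15.1 to 17.4 CPM.

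Of the lipid genes, Scd1 was at 17144 CPM in LKO 8 against 10141 to 10487 CPM in the other LKO livers, and the lipogenesis sum, of which Scd1 is the main part, at 22479 CPM against 15540 to 16100 CPM. Elovl6 was at 43.7 CPM in floxed 1 (others 35.6 to 36.3), Me1 at 130.1 CPM in floxed 2 (others 159 to 160.4) and Pdk4 at 24.0 CPM in floxed 1 (others 10.7 to 12.9). Tbc1d31 was high in floxed 1 at 16.8 CPM, Mgmt in floxed 4 at 38.6 CPM, Cul4b in LKO 6 at 22.6 CPM and Ccdc171 in LKO 5 at 4.02 CPM. The predicted transcripts 9430083B18Rik (0.144 CPM in LKO 5), Gm42642 (1.31 CPM in LKO 6) and Gm12718 (1.81 CPM in floxed 4, the lowest) each had 1 liver apart.

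Sums over lists also had single livers apart. Bile duct cell markers were at 226 CPM in LKO 8 (other LKO livers 185 to 190.2) and lymphocyte markers at 218 CPM in LKO 5 (25.1 to 32.2). The lymphocyte sum in LKO 5 was mostly Ighm, Igkc and Jchain. Erythroid and pancreatic acinar markers were at 373 CPM in LKO 6 (179 to 198), and Zfp900 to Zfp999 at 269 CPM in floxed 2 (244 to 246). In LKO 6 the haemoglobin gene Hbb-bs had 4895 counts against 1376 to 1711 in the other LKO livers. The acinar gene Cela1 was not high there, at 318 counts against 290 to 332.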

How the results depend on the processing

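The 160 calls became 156 with DESeq2 size factors, 160 with upper quartile scaling, 155 with limma-voom, 189 without a filter, 151 with a filter of 1 CPM in 4 libraries and 170 with robust dispersion. DESeq2's Wald test called 524 genes (285 higher, 239 lower), of which 158 are among the 160. Leaving out 1 library at a time gave 69 to 179 calls (32 to 81 higher, 37 to 98 lower), and without floxed 1 and 2 together 229 (124 higher, 105 lower), of which 102 are among the 160. Leaving out floxed 3 and LKO 8 together, chosen after seeing the data, gave 27 (13 higher, 14 lower), in a test of 3 against 3. The cause of these moves was not tested, and no other omission of 1 liver from each group was run for comparison. No paired analysis was possible because floxed livers are numbered 1 to 4 and LKO livers 5 to 8.

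Matr3 stayed called in all 17 alternatives. Among uncalled genes the log2 fold change turned sign to -0.38 for Cyp7a1 without floxed 1 and 2 together. Leaving out 1 library at a time gave -0.22 to 0.27 for Cyp7a1 (below 0 without floxed 1, -0.02, floxed 2, -0.22, or LKO 7, -0.11), -0.011 (without floxed 1) to 0.075 for Pdk2 and -0.46 to 0.019 (without floxed 1) for Pdk4. Of the genes named as uncalled by edgeR, DESeq2 called Acaca, Scd1, Pparg, Mlxipl, Abcb11, Cyp2b9, Cfd, Cop1 and Cul4b (largest adjusted p 0.0442). By DESeq2 the called members became 12 for lipogenesis, 9 for ChREBP targets and glycolysis, 7 for lipid droplets, 6 for bile acids, 7 for Cyp2, 5 for complement, 8 for transporters and 4 for CUL4-DDB1; without a filter they became 4 for bile acids and 4 for transporters, as for transporters without floxed 4 or floxed 1 and 2. Genes of at least 400 kb called lower became 17, and of at least 200 kb 29. Over all 17 alternatives, those called higher ranged from 0 to 2 at 400 kb or more and from 0 to 12 at 200 kb or more. Depth limits the genes below about 1 CPM; intervals from counts would cover counting error only.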
